A study of Mus musculus with 6 samples.

Results

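A set of 8 genes in common use as internal references was followed from prenatal to adult mouse liver: Gapdh, Ppia, Hprt, Gusb, Tbp, Rpl13a, Nono and Hsp90ab1. They were chosen by name, as the probes whose label on the array is the RefSeq messenger RNA of one of these genes. All 8 were found, among 15 probes with such a label and 60915 probes in all, and each was printed on 20 spots of every array. Liver RNA of C57BL/6 mice labelled E18 was on 3 arrays, the prenatal group (one field gives E18.5, and the tissue field says embryo), and C57BL/6 liver RNA labelled 2 months was on the 3 adult arrays. Per the series, each group came from 3 different animals, and the RNA was bought from a supplier, so how the livers were collected is not given in the sources used here. No sex is given, no group was treated, and none carries an engineered allele. The arrays were read in 1 colour (Cy3). Of the 22 genes taken as markers of liver cell types, only the erythroid marker Tfrc had a named probe, so the tissue label could not be checked against hepatocyte markers. The number of arrays, 3 in each group, limits the precision of every value.

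A reference gene is used to scale other measurements, on the premise that its messenger RNA is held at a like level in all samples compared. Such genes serve tasks that most cells carry out, such as glycolysis, protein folding, nucleotide salvage, transcription and translation, and none of these tasks has to run at a constant rate through development. Before birth the liver is a site of blood formation and holds many erythroid precursors beside immature hepatocytes, whereas the adult liver is dominated by hepatocytes with metabolic and secretory functions. In such bulk RNA, fewer cells of a type and less RNA per cell cannot be told apart.

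Sequences upstream of the transcription start are given for Ppia, whose ratios with the other references spread least here, and for Hprt and Rpl13a, whose signals had one of the most constant ratios to each other. They come from RefSeq (GRCm38.p6, 250 bases before the annotated start, 5′ to 3′ on the gene's strand), which held a promoter for 7 of the 8 genes. Capitals mark the GC box GGGCGG, the CCAAT box and the TATA box TATAAA, searched on both strands, so that CCGCCC and ATTGG are the same boxes on the other strand.
Ppia, chr11:6415617-6415866, plus strand: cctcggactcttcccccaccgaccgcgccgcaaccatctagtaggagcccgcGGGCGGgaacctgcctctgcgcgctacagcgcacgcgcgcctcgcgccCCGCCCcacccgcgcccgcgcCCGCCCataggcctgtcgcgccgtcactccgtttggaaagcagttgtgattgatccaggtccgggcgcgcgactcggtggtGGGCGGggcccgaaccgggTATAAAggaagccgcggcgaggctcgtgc
Hprt, chrX:52987828-52988077, plus strand: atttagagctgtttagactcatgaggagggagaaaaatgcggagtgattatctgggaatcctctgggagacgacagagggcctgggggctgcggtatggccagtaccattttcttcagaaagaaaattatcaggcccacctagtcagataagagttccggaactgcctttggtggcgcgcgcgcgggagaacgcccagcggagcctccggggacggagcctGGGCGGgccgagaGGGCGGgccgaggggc
Rpl13a, chr7:45128746-45128995, minus strand: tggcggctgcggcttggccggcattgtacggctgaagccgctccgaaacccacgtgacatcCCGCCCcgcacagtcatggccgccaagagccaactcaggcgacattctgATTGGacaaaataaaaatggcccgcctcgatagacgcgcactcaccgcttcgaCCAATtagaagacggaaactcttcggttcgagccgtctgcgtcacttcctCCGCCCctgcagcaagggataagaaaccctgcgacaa
The Ppia window held 38 CpG dinucleotides, the Rpl13a window 24 and the Hprt window 17. Those of Nono, Tbp, Gapdh and Gusb held 13, 11, 8 and 3. The median was 13 over the 7 windows and 6 over all 32851 promoters in the table. A GC box was found in 4 of the 7 windows, against 32.7% of all promoters. The CCAAT box was found in 2 of 7 (33.8% of all promoters) and TATAAA in Ppia alone, 1 of 7 (12.4% of all promoters). These matches describe letters and not binding.

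The values below are log2 of the background-subtracted signal, averaged over the spots of a probe, minus the 75th percentile of the same array, and differences are adult minus prenatal. Values of different probes on this scale are not compared, because probes differ in how strongly they bind. Whether the probes of Gapdh, Ppia, Rpl13a and Hsp90ab1 also bind transcripts of processed pseudogenes was not tested, since probe sequences were not used here, and the signals and ratios of these genes are given with that limit. Spots of one probe had a median SD of 0.113 for Tbp and of 0.020 (Ppia) to 0.036 (Gapdh) for the other 7 genes, so that the standard error of an array's mean was at most 0.033 for any of the 8 genes. All 20 spots of each of the 8 probes were well above background on every array. The spread between arrays was larger than these errors, with an SD over the 6 arrays of 0.24 to 0.68. Low values gathered on 1 array in each group: 7 of the 8 genes had their lowest prenatal value on replicate 1, and 6 of 8 their lowest adult value on replicate 3. The arrays were scanned on 2 dates, and prenatal replicate 1 and adult replicate 3 were the only arrays of the second date. Of the 3 prenatal arrays, the one with the highest raw 75th percentile (replicate 2, 151.9) held the highest prenatal value of 6 of the 8 genes. Among the adult arrays, the brightest (replicate 1, 114.3) likewise held the highest adult value of 6 of 8. The parts of array brightness and scan date in the spread were not tested separately.

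None of the 8 reference genes changed between prenatal and adult liver at a limma adjusted p under 0.05, while 27.8% of the 32336 tested probes did. At an unadjusted limma p under 0.05 the count was 1 of 8 (Hsp90ab1), against 40.4% of all tested probes. Groups did not overlap for 3 of the 8 genes, Hsp90ab1, Hprt and Rpl13a, against 47.6% of tested probes with a value on every array. Hsp90ab1 was the one gene of the 8 with all adult arrays higher (27.1% of those probes), and Hprt and Rpl13a had all prenatal arrays higher (20.5%). Over the 8 genes, the median absolute difference was 0.34 on the log2 scale, and over all tested probes it was 0.73. The tested probes are not a set of like genes, since only 15 of the 60915 probes carry a messenger RNA label. The 8 were well above background on all 6 arrays, whereas 3 of 6 sufficed for a tested probe. The part of this in these comparisons was not tested. A p above the threshold does not show that a gene was constant, and the intervals below give the range of differences the 6 arrays allow.

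**Figure D1:**
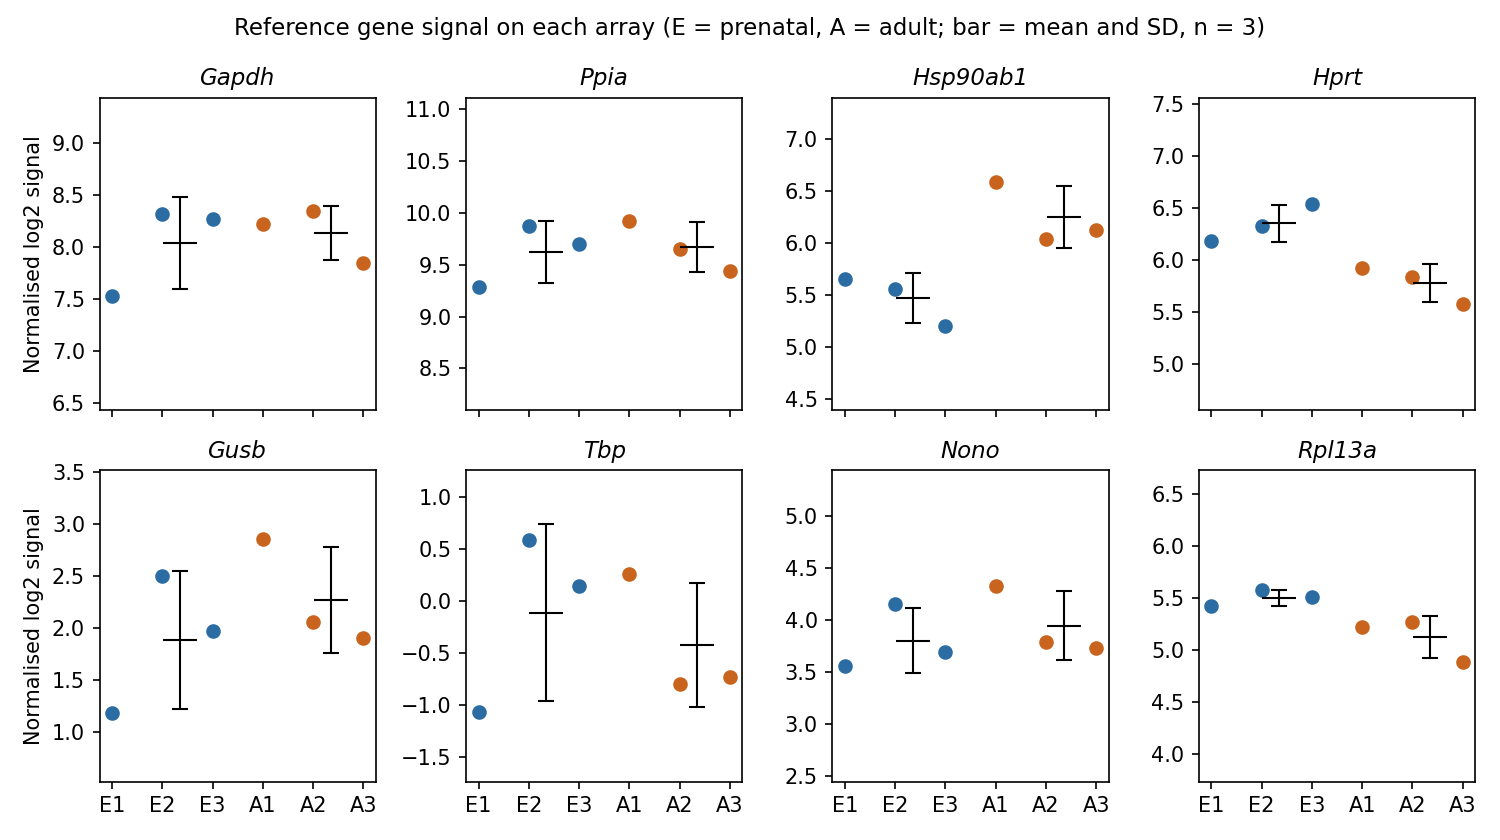
Normalised log2 signal (y axis; each panel spans 3 log2 units) of the 8 reference genes on the 3 prenatal arrays (E1 to E3, blue) and the 3 adult arrays (A1 to A3, orange), with the mean and SD of each group in black. The groups do not overlap for Hsp90ab1, Hprt and Rpl13a, and the first prenatal array is low for Gapdh, Gusb and Tbp.

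Gapdh, Hprt and Gusb encode metabolic enzymes. Gapdh encodes the glycolytic enzyme glyceraldehyde-3-phosphate dehydrogenase, and its log2 signal read 7.53, 8.32 and 8.27 before birth, then 8.22, 8.34 and 7.84 in the adult. The groups overlapped, and the lowest value lay on prenatal replicate 1. The groups differed by 0.10 (standard error 0.32), with a 95% interval from -0.66 to 0.85 (limma adjusted p = 0.845). Without prenatal replicate 1 its sign turned, to -0.16.

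Hprt encodes hypoxanthine-guanine phosphoribosyltransferase, which returns purine bases to the nucleotide pool. Its log2 signal was 6.18, 6.33 and 6.54 before birth and 5.93, 5.83 and 5.58 in the adult, so every prenatal array lay above every adult array. The difference was -0.57, with a 95% interval from -1.16 to 0.014 that just included 0, and it was not called (limma adjusted p = 0.131). It was close in size within both scan dates, -0.56 on the date with 2 arrays of each group and -0.61 on the date with 1 of each. When arrays were weighted by how well they fitted the model, it was called, at -0.74 (limma adjusted p = 0.0137), beside 47.5% of all tested probes. Those weights gave prenatal replicate 3 a weight of 3.99 and prenatal replicate 1 a weight of 0.165.

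Gusb encodes the lysosomal beta-glucuronidase, which breaks down glycosaminoglycans. Gusb read 1.19, 2.51 and 1.97 before birth, then 2.86, 2.06 and 1.91 in the adult, a 3.19-fold range over the 6 arrays. The groups overlapped widely, and the difference of 0.39 (standard error 0.43) had an interval from -0.65 to 1.42 (limma adjusted p = 0.545). Leaving out prenatal replicate 1 lowered the difference to 0.036, and leaving out prenatal replicate 2 raised it to 0.70. The interval therefore allows anything from a lower adult level to one more than 2-fold higher.

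Ppia and Hsp90ab1 serve protein folding. Ppia encodes cyclophilin A, a peptidyl-prolyl isomerase of the cytosol, and its log2 signal was 9.29, 9.87 and 9.70 before birth and 9.92, 9.65 and 9.44 in the adult. Its range over all 6 arrays was 1.55-fold, the smallest of the 8. The difference was 0.051 with an interval from -0.61 to 0.71 (limma adjusted p = 0.909), which lies within a 2-fold change in either direction. Its sign turned in 5 of 20 alternatives, for example to -0.11 without prenatal replicate 1, -0.07 without adult replicate 1 and -0.18 with quantile normalisation.

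Hsp90ab1 encodes the constitutive cytosolic HSP90 beta, a chaperone for kinases and steroid receptors. The log2 signal of Hsp90ab1 read 5.65, 5.55 and 5.20 before birth, then 6.58, 6.04 and 6.12 in the adult, so the lowest adult value lay 0.38 above the highest prenatal one. Its difference was the largest of the 8 genes, 0.78 with an interval from 0.12 to 1.44, and missed the threshold after adjustment over all tested probes (limma adjusted p = 0.0793). Within the scan dates it was 0.94 and 0.47. Array weights gave 0.88 with a limma adjusted p of 0.0103.

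Tbp, Nono and Rpl13a belong to the machinery of gene expression. Tbp encodes the TATA-binding protein of the general transcription factor TFIID. Its log2 signal was -1.07, 0.58 and 0.14 before birth and 0.26, -0.80 and -0.74 in the adult, and both groups covered much the same range. The difference of -0.31 had the widest interval of the 8, from -1.54 to 0.91 (limma adjusted p = 0.687). Within the scan dates the difference had opposite signs, -0.63 and 0.33, and it ranged from -0.79 without prenatal replicate 1 to 0.036 without prenatal replicate 2. The Tbp probe was dim, with raw signals of 35.1, 227.1 and 91.6 before birth, then 136.7, 39.7 and 46.9 in the adult. Beside it, the median of the 15 negative probes printed among the targets was 2.47 to 3.57 on the 6 arrays. On prenatal replicate 1, 1 of those negative probes reached 193.2 and the next highest 11.6.

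Nono encodes a paraspeckle protein that binds RNA and takes part in splicing and transcription. Its log2 signal was 3.56, 4.15 and 3.70 before birth and 4.33, 3.79 and 3.73 in the adult. The groups overlapped, and the difference was 0.14 with an interval from -0.56 to 0.85 (limma adjusted p = 0.753). Without adult replicate 1, which held its highest value, the difference was -0.046.

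Rpl13a encodes a protein of the large ribosomal subunit. Rpl13a read 5.42, 5.57 and 5.51 before birth, then 5.22, 5.27 and 4.89 in the adult, and every prenatal value lay above every adult one by at least 0.16. The prenatal arrays differed little, with an SD of 0.075 (n = 3), and prenatal replicate 1 was only 0.12 below the mean of the other two. The difference was -0.38 with an interval from -0.94 to 0.19 (limma adjusted p = 0.284). A small prenatal spread thus went with a difference between ages of 1.30-fold. Gapdh, whose groups overlapped, had an SD of 0.44 (n = 3) before birth. Its prenatal replicates 2 and 3 differed by only 0.050, and replicate 1 lay 0.77 below their mean.

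With arrays scaled to the 75th percentile, intervals within 2-fold in both directions were found for Gapdh, Ppia, Nono and Rpl13a, 4 of the 8 genes. The share of all tested probes with such an interval is not given. For Hprt, Gusb, Tbp and Hsp90ab1 the interval included a change of more than 2-fold. When each array was scaled to the mean of the 8 genes in place of its 75th percentile, each difference was lower by 0.025. That gave 0.75 for Hsp90ab1, -0.60 for Hprt and -0.40 for Rpl13a, and again none passed the limma threshold. The interval of Rpl13a was then -1.09 to 0.29 and no longer lay within 2-fold. The mean of the 8 genes was 5.07 ± 0.33 (SD, n = 3) on prenatal arrays and 5.09 ± 0.29 (SD, n = 3) on adult arrays, a difference of 0.025. Of the 8 differences, 5 were positive and 3 negative.

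**Figure D2:**
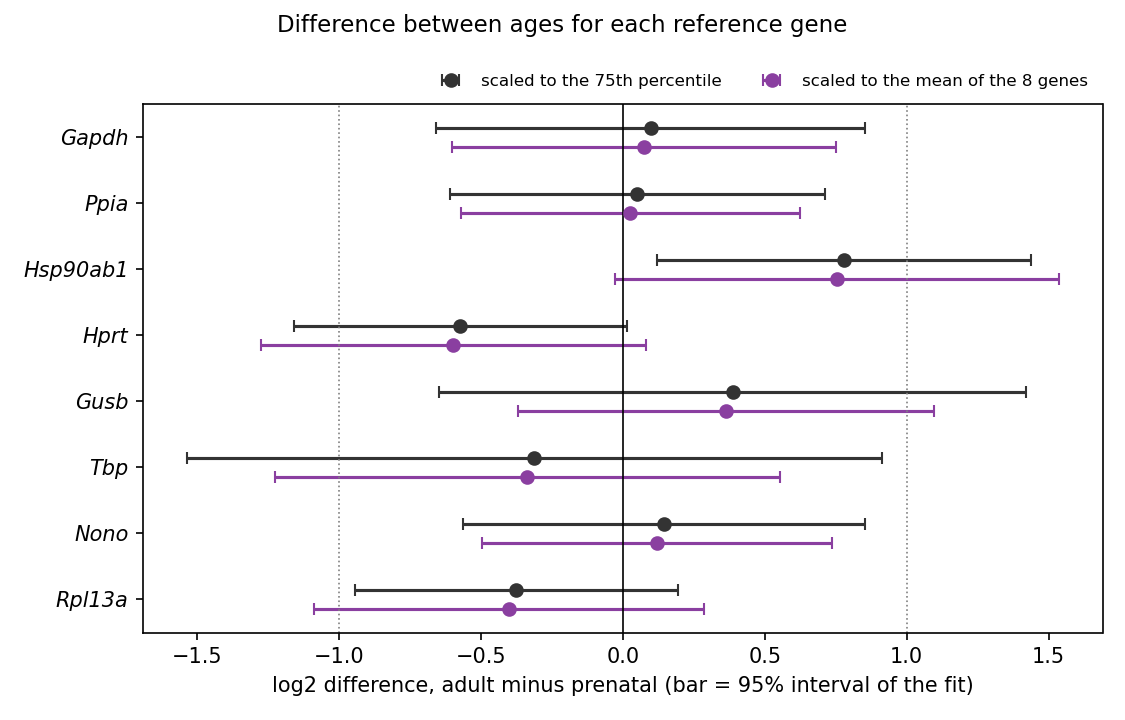
Log2 difference, adult minus prenatal (x axis), of the 8 reference genes with the 95% interval of the limma fit, for arrays scaled to the 75th percentile (black) and to the mean of the 8 genes (purple); dotted lines mark 2-fold. Only the interval of Hsp90ab1 under the first scaling, 0.12 to 1.44, excludes 0, before adjustment over all probes.

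The spread of the references was set beside that of the other probes. The SD over the 6 arrays was lowest for Ppia (0.24) and Rpl13a (0.25), followed by Nono (0.30), Gapdh (0.33), Hprt (0.35), Hsp90ab1 (0.49), Gusb (0.57) and Tbp (0.68). The median was 0.34 for the 8 genes and 0.67 for all tested probes. Of the tested probes with a value on every array, 5.99% spread less than Ppia and 50.5% spread less than Tbp. Pooled within the groups, so that the difference between ages does not enter, the SD was 0.15 for Rpl13a, 0.18 for Hprt and 0.74 for Tbp, and 76.1% of the tested probes spread less than Tbp. The normexp correction, which adds an offset of 50 to every spot, gave another order: the SD over the 6 arrays was then lowest for Rpl13a (0.33), followed by Tbp (0.37) and Ppia (0.38), and highest for Gusb (0.57), and the SD of Tbp within groups was 0.40. Each of the 8 probes is a mean of up to 20 spots, whereas most other probes are read from 1 spot. Most of the 8 were also bright: the mean signal of Ppia exceeded that of 99.4% of the tested probes with a value on every array. This share was 75.8% for Gusb and 50.4% for Tbp, and 86.8% (Nono) to 98.1% (Gapdh) for the others. The parts of spot number and signal level in the comparison were not tested.

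Ratios between 2 references on the same array do not depend on a scaling that subtracts 1 value per array, and 28 such pairs can be formed. Quantile normalisation is not of that kind, and no ratios are given under it. The log2 ratio did not overlap between the groups for 12 of the 28 pairs, against 50.9% of all pairs of tested probes. Hprt took part in 6 of these 12, Hsp90ab1 and Rpl13a in 4 each, and Tbp in 1. Under the normexp correction the count was 17 of 28, and the share over all pairs of tested probes is not given for that setting. An exact two-sided permutation test of 3 against 3 arrays cannot go below 0.1, which each of the 12 reached (0.23 after Benjamini-Hochberg adjustment over the 28 pairs), so this test could not call any pair.

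The widest shifts were those of Hsp90ab1 against Hprt, Rpl13a and Tbp. The log2 ratio of Hsp90ab1 to Hprt was -0.88 ± 0.42 (SD, n = 3) on prenatal arrays and 0.47 ± 0.24 (SD, n = 3) on adult arrays, a shift of 1.35, or 2.55-fold. For Hsp90ab1 to Rpl13a the shift was 1.15, or 2.23-fold, and for Hsp90ab1 to Tbp it was 1.09, with overlapping groups. In limma fits over all probes with each array scaled to one gene, the first and second of these passed the threshold whichever gene of the pair was the scaler. Hsp90ab1 rose relative to Hprt (standard error 0.32, limma adjusted p = 0.0159, and 0.0302 for the reverse fit) and relative to Rpl13a (standard error 0.29, limma adjusted p = 0.0251, and 0.0477 for the reverse fit). No other pair of the 28 was called in either fit. Both fits of a pair use the same 6 ratios with the sign turned, so they are not separate support. Their p-values are adjusted over all tested probes and not over the 28 pairs. In those fits 38.0% (scaled to Hprt), 32.0% (to Rpl13a) and 30.7% (to Hsp90ab1) of all tested probes were called, so a call was common among probes at large. The ratio to Hprt kept its call in 3 of the 6 fits that left out 1 array, and the ratio to Rpl13a in 2 of 6. The calls were lost without prenatal replicate 3 (limma adjusted p = 0.0572 and 0.0932), adult replicate 1 (0.0534 and 0.0880) or adult replicate 3 (0.0618 and 0.0853), and for Rpl13a also without prenatal replicate 2 (0.0633).

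**Figure D3:**
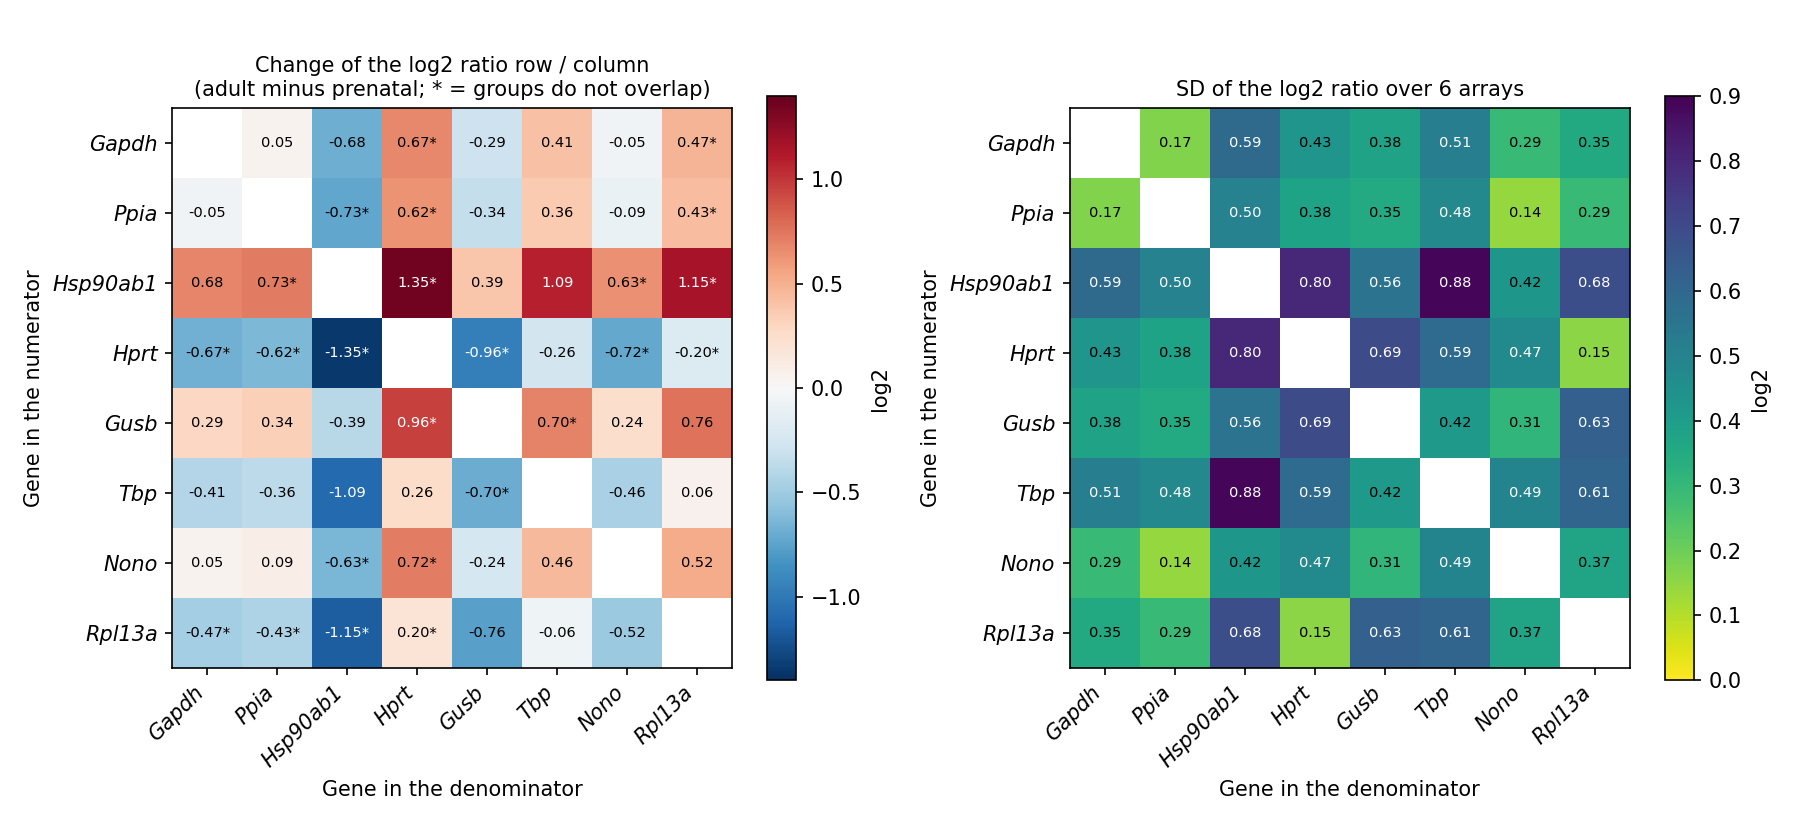
Left, change of the log2 ratio of the row gene to the column gene, adult minus prenatal, with an asterisk where the groups do not overlap; right, SD of the same ratio over the 6 arrays. The row of Hsp90ab1 holds the largest shifts, up to 1.35, and the smallest SDs join Ppia with Nono (0.14), Hprt with Rpl13a (0.15) and Gapdh with Ppia (0.17).

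Some pairs kept a nearly constant ratio. Ppia and Nono had an SD of the log2 ratio of 0.14 over the 6 arrays and a shift between ages of -0.09, or 1.07-fold. Gapdh and Ppia had an SD of 0.17 and a shift of 0.047. Hprt and Rpl13a had an SD of 0.15, yet their ratio did not overlap between the groups, at 0.85 ± 0.16 (SD, n = 3) for prenatal and 0.65 ± 0.07 (SD, n = 3) for adult arrays. The ratio of Hprt to Rpl13a was thus among the tightest while every adult array lay below every prenatal array for both genes. Among all 15 probes with a messenger RNA label, the gene with the smallest SD of the ratio was Nono for Ppia and for Gusb (0.31), Ppia for Gapdh and for Nono, and Rpl13a and Hprt for each other. It lay outside the 8 for Tbp, whose ratio to the cytoplasmic actin gene Actb had an SD of 0.31, and for Hsp90ab1, whose ratio to the glycerol kinase gene Gk had an SD of 0.33.

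The mean SD of a gene's log2 ratios with the other 7, known as the geNorm M value, is lower for a gene that moves with the rest. M was 0.330 for Ppia, 0.357 for Nono, 0.390 for Gapdh, 0.441 for Rpl13a, 0.476 for Gusb, 0.501 for Hprt, 0.569 for Tbp and 0.634 for Hsp90ab1. Ppia had the lowest M whichever array was left out (0.305 to 0.349), and Nono and Gapdh took the next places in each case. Hsp90ab1 was highest except without prenatal replicate 3, where Tbp was. Each gene's range on leaving out 1 array overlapped that of its neighbours in this order. Pooled within groups, where the difference between ages does not enter, M fell to 0.436 for Hsp90ab1 and 0.330 for Hprt, and Tbp was highest at 0.529. Under the normexp correction, M of Tbp was 0.281, the second lowest of the 8, and Ppia was still lowest at 0.260. By construction the offset shrinks differences between dim spots.

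**Figure D4:**
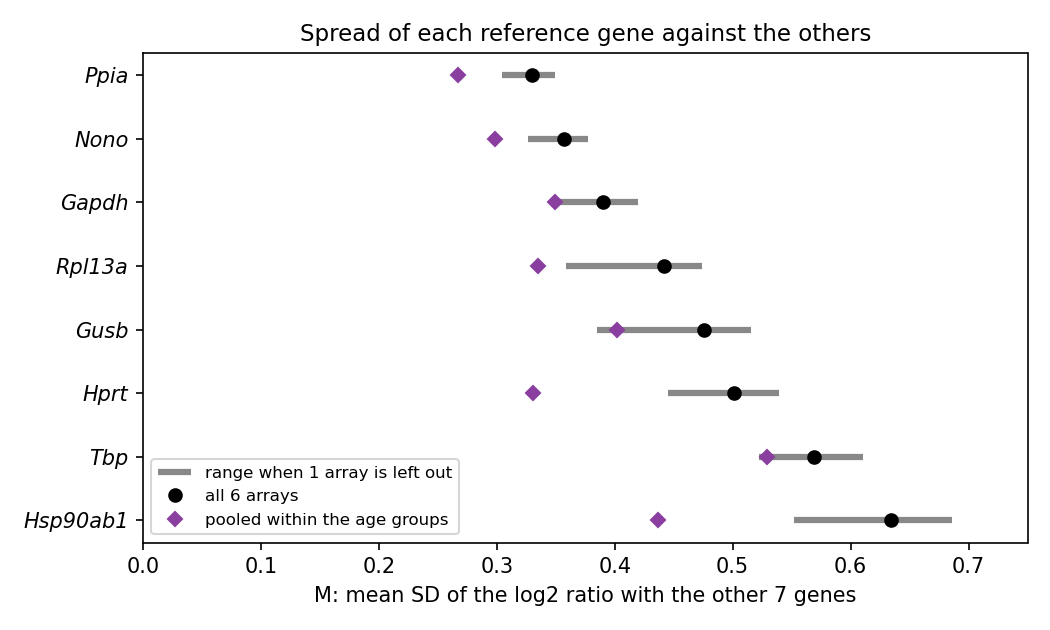
M value (x axis, log2 units), the mean SD of the log2 ratios of a gene with the other 7, for all 6 arrays (black), its range when 1 array is left out (grey bar) and pooled within the age groups (purple). Ppia is lowest at 0.330 and Hsp90ab1 highest at 0.634 over all arrays; within groups Tbp is highest at 0.529.

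The ratios between references spread more over the prenatal than over the adult arrays, whereas the SD of the genes' own values was larger before birth for 4 of the 8 (Gapdh, Ppia, Gusb and Tbp) and larger in the adult for the other 4. M over the 3 prenatal arrays averaged 0.430 over the 8 genes, against 0.273 over the 3 adult arrays, and was larger before birth for each of the 8. Over 2 arrays at a time, it averaged 0.506 and 0.429 for the pairs with prenatal replicate 1 and 0.216 for prenatal replicates 2 and 3, within the range of the adult pairs. The adult pairs gave 0.358, 0.211 and 0.175, the highest of them for replicates 1 and 2. On prenatal replicate 1, Tbp lay 1.43, Gusb 1.05 and Gapdh 0.77 below the mean of the other prenatal arrays, whereas Hsp90ab1 lay 0.28 above it. That array was also the only prenatal array of the second scan date, and the part of scan date was not tested.

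The choice of a single reference moved the outcome for all probes. Over all 32336 tested probes the median difference was 0.065 when arrays were scaled to the 75th percentile, 0.013 when scaled to Ppia, -0.034 to Gapdh and -0.080 to Nono. It was 0.64 when scaled to Hprt, 0.44 to Rpl13a, 0.38 to Tbp, -0.32 to Gusb and -0.71 to Hsp90ab1. These shifts mirror the reference gene's own difference by construction. The counts of calls did not follow the size of the shift, and the spread of the reference gene also enters each fit. Scaled to Hprt, 12277 probes were called, 81.9% of them higher in the adult, and scaled to Hsp90ab1, 9942 were called, 20.3% of them higher in the adult. Scaled to Ppia, the 8035 calls (24.8% of tested probes) were 58.6% higher in the adult, near the 57.0% of the 8987 calls under the 75th percentile, and 7367 probes were called under both. Tbp and Gusb, the references with the widest spread without the normexp correction, gave the fewest calls, 4138 (12.8%) and 4557 (14.1%). The mean of all 8 genes gave 7650 calls, 59.9% of them higher in the adult, and 7041 shared with the 75th percentile.

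**Figure D5:**
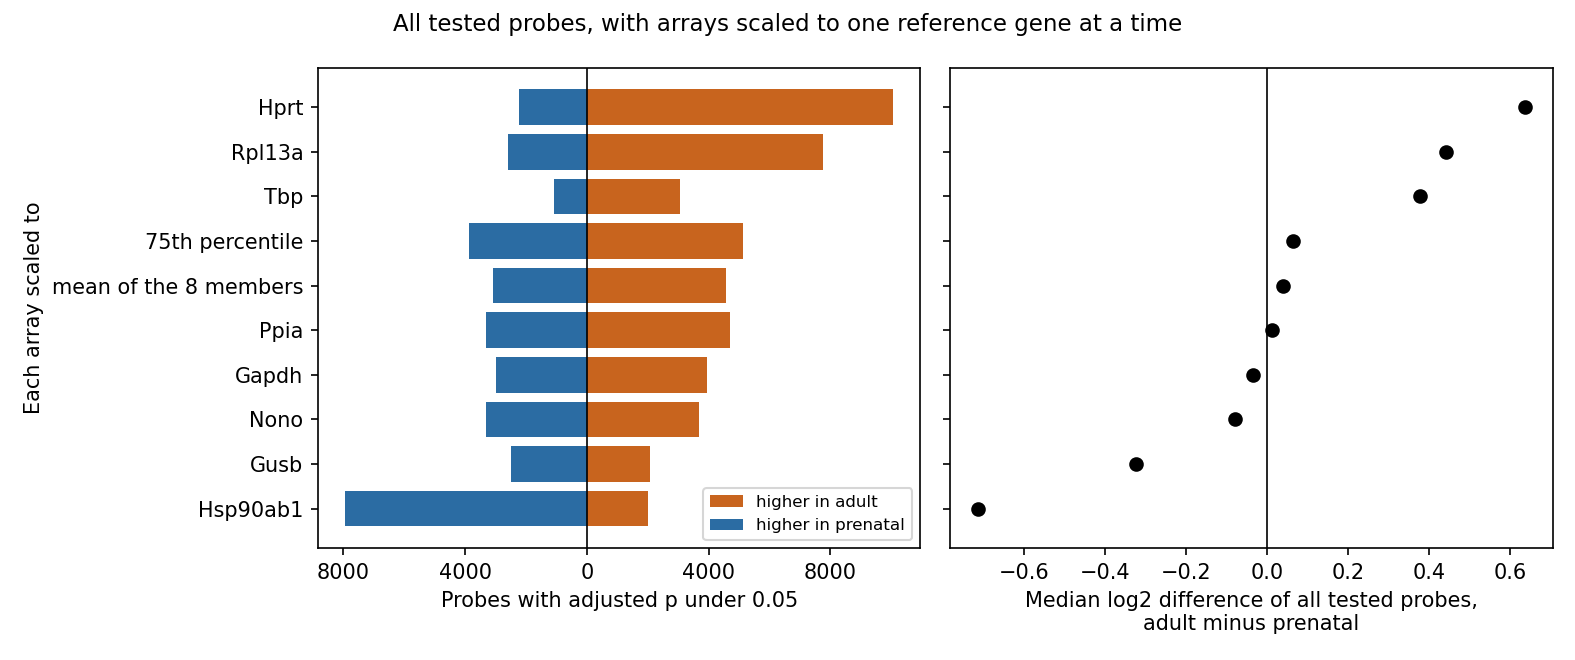
Left, number of tested probes with a limma adjusted p under 0.05 that were higher in adult (orange, to the right) or prenatal liver (blue, to the left) when arrays were scaled to 1 reference gene, to the mean of the 8 or to the 75th percentile; right, median log2 difference of all tested probes under the same scaling. Scaling to Hprt puts 81.9% of calls on the adult side and scaling to Hsp90ab1 20.3%.

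Of 26 other genes in wide use as references, 4 had a named probe here, and 3 of them (B2m, Tfrc and Tuba1b) changed between the ages with log2 differences of 2.75, -3.62 and -2.79 (limma adjusted p of at most 0.000908), beside 27.8% of all tested probes. The fourth, Actb, had a difference of -0.30 with an interval from -1.30 to 0.71. B2m and Tfrc were called under all 9 scalings to the reference genes, and Tuba1b under all but scaling to Tbp alone (limma adjusted p = 0.0564). The sign of Actb turned with the reference, from -1.08 when scaled to Hsp90ab1 to 0.27 when scaled to Hprt, and it was called under none. Tfrc, the transferrin receptor of cells that take up iron, is also the one erythroid marker with a probe, and it was lower on every adult array, 8.14 ± 0.15 (SD, n = 3) against 4.52 ± 0.23 (SD, n = 3). The part of erythroid cells in the differences of Hprt, Rpl13a and Hsp90ab1 was not tested.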

How the data were processed

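Each of the 6 liver RNA samples was read on 1 array in 1 colour, and sample titles gave group and replicate number. The authors deposited scanner output of Agilent's Feature Extraction; the submitters' processing notes give its version as 11.0.1.1. Per the file headers, the processed signal is a linear, background-subtracted intensity, not scaled between arrays. The authors also deposited a table of log2 values with no normalisation named in the sources used here; it holds none of the 8 probes and was not used further. The 8 accessions were matched to RefSeq (GRCm38.p6) without versions. The array design names another build (mm9), so no positions of probes are given, and probe sequences were not used here.

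Spots flagged as outliers were dropped, log2 processed signals averaged per probe, and the 75th percentile of the array over spots that are not controls subtracted. Probes well above background on at least 3 of 6 arrays were tested, 32336 of 60915, leaving out the 15 negative probes. The group difference was fitted by limma (version 3.58.1, R version 4.3.3, eBayes, two-sided, Benjamini-Hochberg over all tested probes, threshold 0.05). This fit was tested on simulated data with independent noise for each probe and array. That simulation held no effects shared by the probes of an array, such as scan date. The 6 arrays were scanned on 2 dates, the first with 2 arrays of each group and the other with 1 of each (prenatal replicate 1 and adult replicate 3). P-values measure the spread between arrays within a group. That spread holds differences between these animals' RNA samples, as the series describes them. It also holds scan date, for which the main fit has no term. The genes, lists and tests were chosen with earlier results of these data known. All 8 genes are named whatever their values. The fits of single pairs under alternatives, the normexp correction on median signals and the fit of 1 scan date were chosen after seeing the data. Alternatives covered background, scaling, filters, variance, array weights, scan date, replicate number, spots and each array left out.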

Additional observations from a re-analysis of the deposited data

How the results depend on the processing

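Of 160 refits of the 8 genes under 20 alternatives, 146 kept their direction and their side of the threshold, 2 were called and 12 turned sign; those that turned were Gapdh, Ppia, Tbp and Nono, and the cause was not tested. The 2 calls came with array weights, 0.88 for Hsp90ab1 and -0.74 for Hprt, so that 2 of the genes were called, and 15373 of all tested probes. Under the same weights Gapdh was -0.12 and Ppia -0.10. Quantile normalisation gave -0.098 for Gapdh and -0.18 for Ppia, the normexp correction -0.022 for Ppia, and the scan date with 2 arrays of each group -0.012 for Gapdh. With each array omitted in turn, the differences were -0.16 to 0.24 for Gapdh, -0.11 to 0.18 for Ppia, -0.79 to 0.036 for Tbp and -0.046 to 0.32 for Nono, called in none. The count of all probes called was 5314 to 11561 on leaving out each array, lowest without adult replicate 2 (5697 and 5387 without adult replicates 1 and 3) and highest without prenatal replicate 1, and 5957 when only probes above background on all 6 arrays were tested. Scaled to the mean of the 8 genes, it was 4203 to 9410, with 4718 without prenatal replicate 3, 4203 without adult replicate 2 and 4457 without adult replicate 3. Scaled to Gusb or Tbp alone, it was 4557 and 4138. With scan date as a block, 11599 probes were called and none of the 8 genes. The standard error then fell for each of the 8, from 0.51 to 0.39 for Tbp but only from 0.28 to 0.27 for Hsp90ab1. The shift of Hsp90ab1 ranged from 1.12 to 1.53 against Hprt and from 1.02 to 1.33 against Rpl13a when each array was left out. In a fit with a replicate block, the shifts were again 1.35 and 1.15 but not called (limma adjusted p = 0.0719 and 0.0886), and 4505 probes were called. The deviations of arrays that share a number were correlated at -0.525, -0.349 and -0.313. No such values are given for arrays with different numbers, so whether the numbers pair the arrays is not settled. Normexp on mean spot signals was not run, since the files used here hold the median.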
